A study of Mus musculus with 32 samples.

Results

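The genes described here are 36 interferon-stimulated genes of the mouse, followed through all 8 treatment groups of a study of the newborn lung. The members were chosen by gene symbol as known targets of interferon. The rule uses no measured value, although earlier results of these data were known when the list was made, and all 36 symbols were found among the 46165 gene records of the files. They were read in RNA from whole lungs of C57BL/6 pups in 32 libraries of polyadenylated RNA, 4 in each group. By its title the study was about how control interventions alone bear on the lung's transcripts after birth. Newborn pups were assigned to groups at random with litters balanced.

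The 5 groups taken at day 14 after birth began with untreated pups. Another group was injected intraperitoneally with saline (25 µl/g) daily over days 1 to 13, and another with nuclease-free water (10 µl/g) on days 1 and 3. In the remaining groups of that age pups received scrambled 1 or scrambled 2, locked nucleic acid oligonucleotides that serve as controls for microRNA inhibitors, at 10 mg per kg in the same water on days 1 and 3. The 3 groups taken at day 6 were injected on days 1 and 2 with saline (25 µl), with the oil Miglyol, a solvent made of triglycerides (25 µl), or with tamoxifen (0.4 mg) dissolved in that volume of Miglyol. Tamoxifen is an oestrogen receptor ligand that is widely given to switch on inducible Cre recombinases. All lungs were perfused with buffered saline, day-6 pups were killed with pentobarbital and day-14 pups under isoflurane, so age, anaesthetic and injection scheme cannot be told apart. The labels do not say which samples came from which animals. The spread behind the p-values is therefore that of these samples and may be technical. In whole-lung RNA, fewer cells of a type and less RNA per cell cannot be told apart.

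Libraries held 7918537 to 12443221 exon reads, of which 87.5% to 90.9% mapped to a single place, and reads in introns were 8.61% to 16% of the total. Levels are given as CPM, exon reads scaled to the effective library size. Against the labelled tissue, marker genes of alveolar type 2 cells, the surfactant-making cells of the lung, summed to 10288 to 16514 CPM in every library. Water replicate 3 stood apart, with markers of skeletal muscle at 268.5 CPM and of adipose tissue at 290.2 CPM, against at most 30.8 and 71.0 CPM in any library outside the water group. Without that library, as with it, 0 members passed the edgeR test in each comparison with water.

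Interferons are secreted proteins that warn cells of infection. Binding of type I interferon to its receptor activates Janus kinases, and these lead a factor that contains STAT2 and IRF9 to bind the interferon-stimulated response element in the promoters of target genes. Interferon gamma acts through a different element, the gamma-activated site, and even without infection many targets are kept at a low tonic level, in lung as in other tissues. The targets include the sensors and transcription factors of the pathway itself and effector proteins that degrade viral RNA, block translation or attack the membranes of invading microbes.

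The interferons themselves were scarcely read. Of 16 interferon genes listed, 11 had no exon read in any library, and 3 reads over all libraries would be 0.00996 CPM, the limit that a count of 0 allows. The other 5 had 55 reads together, 37 of them in Ifnz, a type I interferon gene, and 14 in Ifng, which encodes interferon gamma. The receptor and kinase genes were read throughout. Ifnar1, a chain of the type I receptor, had 137.1 to 159.4 CPM, and Ifngr1, a chain of the gamma receptor, had 93.4 to 194.8 CPM.

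Promoters were examined because the members share regulators. RefSeq promoters of GRCm38.p6, 250 bases before to 50 bases after a start site, were found for 27 of the 36 members. The core of the interferon-stimulated response element, GAAA followed by NN and GAAA again, where N is any base, was searched on both strands. They occurred in 15 of these 27 members (55.6%) and in 3.99% of 27025 genes with a promoter (3.44% of 32851 promoters). The letters TTCNNNGAA of the gamma-activated site, which reads the same on either strand, occurred in 7 of 27 members (25.9%) and in 9.55% of genes. In Bst2 a match of one overlapped a match of the other. A match is a description of the letters in this window, not of binding. The stretches below belong to Isg15, for which no change between ages was called, and to the 6 members with the widest changes past the threshold, all of which hold a match. Of these Ifit3, Gbp2, Gbp3 and Gbp7 were higher at day 14 and Oas3 and Rsad2 lower. The stretches run 5′ to 3′ on the strand of the gene, and capitals mark the response element or its reverse complement. Stretches are 80 bases long, or 30 where the longer one would touch an annotated exon or the gene record. The short Ifit3 stretch still lies inside the record of the files, and that of Gbp3 runs into it.
Ifit3, chr19:34583397-34583426, plus strand: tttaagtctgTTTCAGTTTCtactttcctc
Gbp2, chr3:142620594-142620623, plus strand: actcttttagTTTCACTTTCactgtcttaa
Gbp3, chr3:142559995-142560024, plus strand: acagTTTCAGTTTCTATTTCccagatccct
Gbp7, chr3:142530243-142530322, plus strand: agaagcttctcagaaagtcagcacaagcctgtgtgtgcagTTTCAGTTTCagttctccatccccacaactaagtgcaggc
Oas3, chr5:120777695-120777774, minus strand: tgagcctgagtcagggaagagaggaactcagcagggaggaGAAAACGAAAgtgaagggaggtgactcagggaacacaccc
Rsad2, chr12:26456533-26456612, minus strand: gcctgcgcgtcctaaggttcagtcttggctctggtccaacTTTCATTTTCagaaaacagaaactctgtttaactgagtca
Isg15, chr4:156200845-156200924, minus strand: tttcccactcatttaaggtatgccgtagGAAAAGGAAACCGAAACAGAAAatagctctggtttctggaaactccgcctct
The match nearest the start site lay 122 bases before it in Ifit3, 59 in Gbp2, 39 in Gbp3, 53 in Gbp7, 75 in Oas3, 120 in Rsad2 and 66 in Isg15. Members that were higher and members that were lower at day 14 therefore both carried the element.

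The members spanned a wide range of levels. Of the 36, 32 had a mean of at least 1 CPM over the 32 libraries. Per kilobase of exon, Bst2, which encodes the virus-tethering protein tetherin, was highest with a mean of 55.4 CPM per kb. It was followed by the transcription factor gene Irf1 (26.1 CPM per kb), by Ifi35 (24.1 CPM per kb), a member induced in many cell types, and by Irf9 (17.9 CPM per kb). The oligoadenylate synthetase gene Oas3 (0.353 CPM per kb) and the RNA-binding effector gene Ifit1 (0.242 CPM per kb) were near the bottom, above Cxcl10 (0.159 CPM per kb), which encodes a chemokine for T cells. Cxcl10 had 0 to 7 reads in a library and was too low to test.

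Some records limit what can be read. The records of the GTPase genes Mx1 and Mx2, defective in C57BL/6 as in most laboratory strains, list no exon and hold no exon read. Ifit1 had 1 to 17 reads a library, only 11.8% of them unique, and was tested at day 14 but not at day 6. The unique share was 56.4% in Oas1a, 58.4% in Parp9, 59.9% in Ifit3 and 69.2% in Dhx58, so part of their counts could belong to a near-identical or overlapping record. Parp9 and Dtx3l, partners in one ADP-ribose and ubiquitin ligase complex, overlap on opposite strands (chr16:35938470-35972621 and chr16:35926515-35939027), and how the counting treated strand is not given in the sources used here. In all, 33 members were tested at day 14 and between ages, and 32 at day 6.

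**Figure D1:**
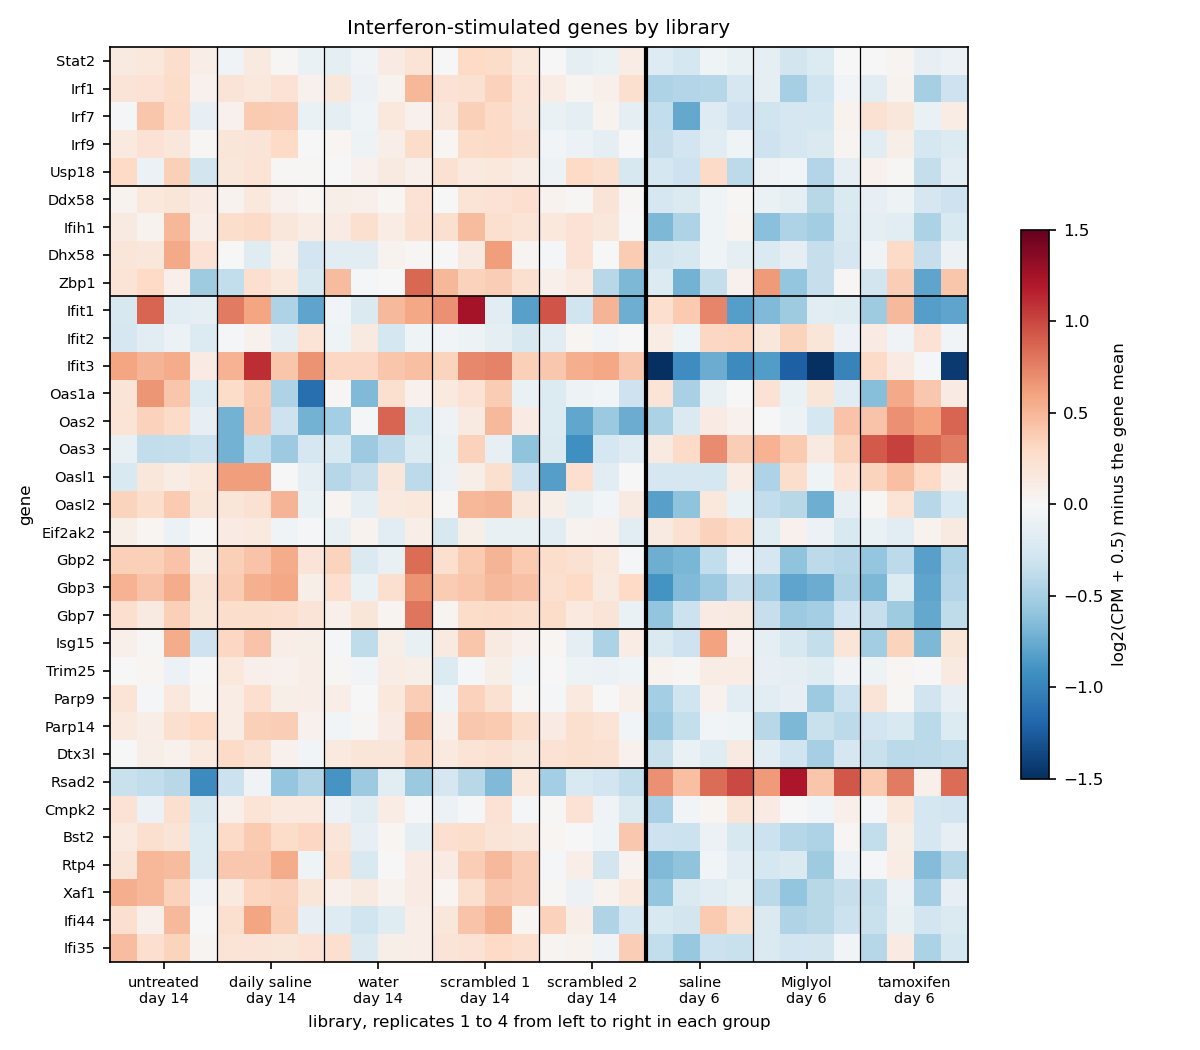
Level of the 33 tested members (vertical axis, ordered by role, black lines between roles) in the 32 libraries (columns, 4 per group). Colour gives log2(CPM + 0.5) minus the mean of the gene. The thick line parts day 14 (left) from day 6 (right), where most genes turn from red to blue and Oas3 and Rsad2 turn from blue to red.

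The clearest difference among the members was between ages. The mean of the day-14 groups was set against the mean of the day-6 groups in a fit of all libraries by the edgeR quasi-likelihood test, with p adjusted over all genes by Benjamini-Hochberg. Of 33 members tested, 21 were higher and 3 lower at day 14 at an adjusted p under 0.05. That is 72.7% of members, beside 61.4% of all 14406 genes (30% higher, 31.3% lower). The median log2 fold change was 0.287 for the members and -0.0057 for all genes. Of the 24 members past the threshold, 15 changed by less than 0.5 on the log2 scale. Levels of the ages did not overlap in 3 of 33 members, Gbp3, Parp14 and Xaf1, and in 9.45% of all genes, a like share.

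**Figure D2:**
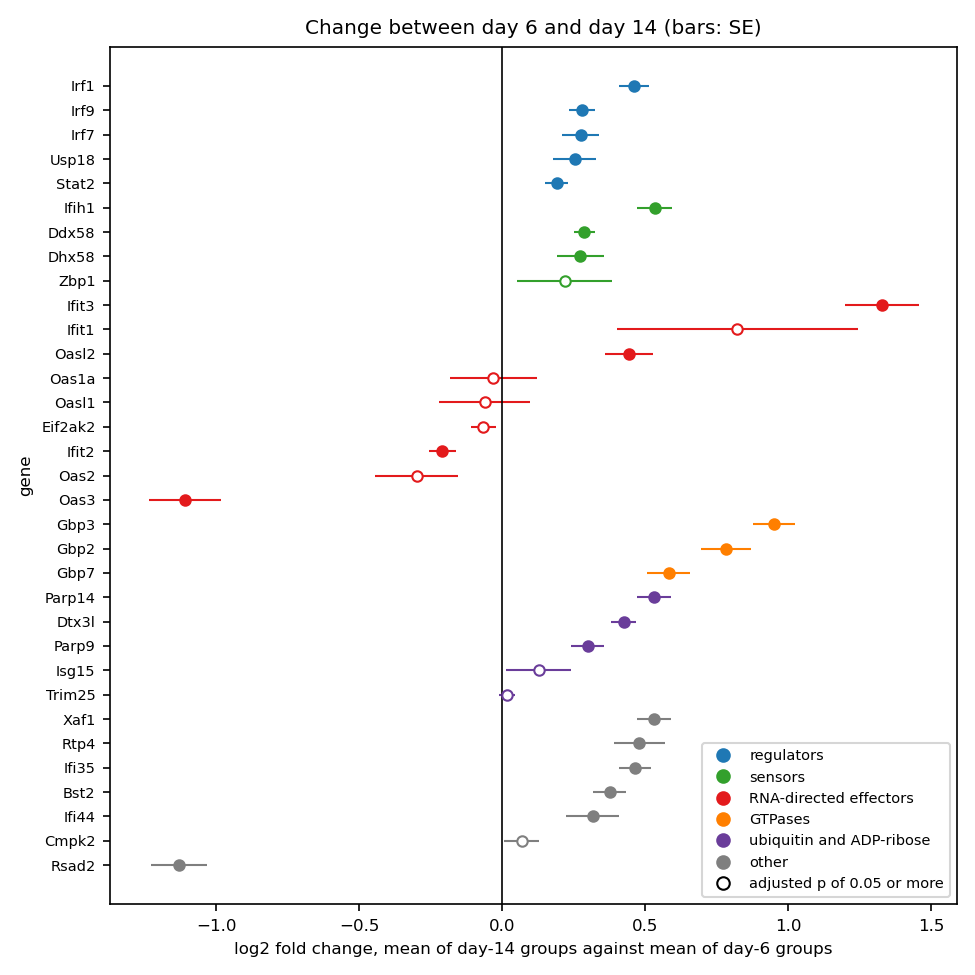
Log2 fold change of the 33 tested members between ages (horizontal axis; bars, SE), grouped and coloured by role. Filled points have an adjusted p under 0.05, and values run from -1.13 in Rsad2 to 1.33 in Ifit3.

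All 5 regulators rose. Irf1 (chr11:53770014-53778374), a transcription factor induced by interferon gamma, had a lowest, median and highest value of 81.3, 98.5 and 122.1 CPM at day 14 and of 61.0, 69.7 and 89.6 CPM at day 6. Only the highest day-6 libraries reached the day-14 range, and the log2 fold change was 0.46 (SE 0.053, edgeR adjusted p = 6.26e-09). Irf9, the DNA-binding part of the type I interferon factor, had 43.6, 51.9 and 58.9 CPM against 37.5, 41.3 and 50.7 CPM, a log2 fold change of 0.28. Stat2, its partner, rose by 0.19. Irf7, which amplifies the production of interferon, rose by 0.27, and Usp18, which strips ISG15 from proteins and damps the receptor, by 0.25.

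Of the 4 sensors of foreign nucleic acid, 3 rose. Ifih1 (chr2:62595612-62646255), the gene of the long double-stranded RNA sensor MDA5, had 29.2, 33.3 and 41.3 CPM at day 14 and 18.1, 22.9 and 30 CPM at day 6. The ranges met only at their edges, and the log2 fold change was 0.53 (SE 0.060, edgeR adjusted p = 1.89e-09). Ddx58, the gene of the RNA sensor RIG-I, had 66.9, 71.0 and 79.9 CPM against 50.1, 59.2 and 67.9 CPM, a log2 fold change of 0.29. Dhx58, a regulator of both sensors, rose by 0.27. Zbp1, a sensor of nucleic acid in the Z form, had a log2 fold change of 0.22 (SE 0.167; adjusted p = 0.264 by edgeR) that did not pass.

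The RNA-directed effectors were split. Of 9 tested, 2 rose, 2 fell and 5 did not pass, and their median was -0.062. Ifit3 (chr19:34583142-34588982), whose product binds its relatives on viral RNA, had 20.1, 26.0 and 40.5 CPM at day 14 and 5.18, 9.34 and 22.6 CPM at day 6. The day-6 libraries above 11 CPM were 3 of the tamoxifen group, the other 9 lay below every day-14 library, and the log2 fold change was 1.33 (SE 0.129, edgeR adjusted p = 7.87e-10). With unique reads alone it was 1.22. Ifit2 (chr19:34550549-34576534), next to Ifit3 on the same strand, had 30.4, 35.0 and 42.5 CPM at day 14 and 34.5, 40.6 and 46.3 CPM at day 6, and it fell by 0.21 on the log2 scale.

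The oligoadenylate synthetases make the second messenger that turns on RNase L. Oas3 (chr5:120753098-120777659) had 0.574, 1.16 and 2.09 CPM at day 14 and 1.73, 2.30 and 3.65 CPM at day 6. A single day-14 library, of scrambled 1, reached into the day-6 range, and the log2 fold change was -1.11 (SE 0.126, edgeR adjusted p = 1.88e-09). Its neighbour Oas2 had 1.61, 2.87 and 6.12 CPM against 2.10, 3.35 and 6.10 CPM, with a log2 fold change of -0.30 (edgeR adjusted p = 0.0725). Oas1a and Oasl1 had log2 fold changes of -0.03 and -0.06 and did not pass. Oasl2, a synthetase-like member, had 24.0, 29.7 and 38.0 CPM against 14.8, 21.5 and 30.5 CPM and rose by 0.44. The kinase gene Eif2ak2, whose product PKR halts translation, and Ifit1 had log2 fold changes of -0.07 and 0.82 (SE 0.043 and 0.422) and did not pass.

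All 3 guanylate-binding protein genes rose. They encode GTPases that coat the vacuoles of microbes and lie side by side on chromosome 3. Gbp3 (chr3:142560016-142573213) had 23.6, 33.3 and 40.7 CPM at day 14 and 13.4, 16.6 and 22.0 CPM at day 6, so every day-14 library lay above every day-6 library. Its log2 fold change was 0.95 (SE 0.073, edgeR adjusted p = 3.18e-13). Gbp2 (chr3:142620663-142638008) had 30.3, 45.1 and 63.6 CPM against 19.8, 25.8 and 33.3 CPM, a log2 fold change of 0.78. Gbp7 (chr3:142530336-142550151) had 49.9, 62.5 and 93.9 CPM against 31.3, 41.5 and 58.5 CPM, a log2 fold change of 0.58. In both the ranges met at the edges, through saline replicate 4 of day 6 in Gbp2 and through saline replicates 3 and 4 in Gbp7, which had 58.2 and 58.5 CPM.

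**Figure D3:**
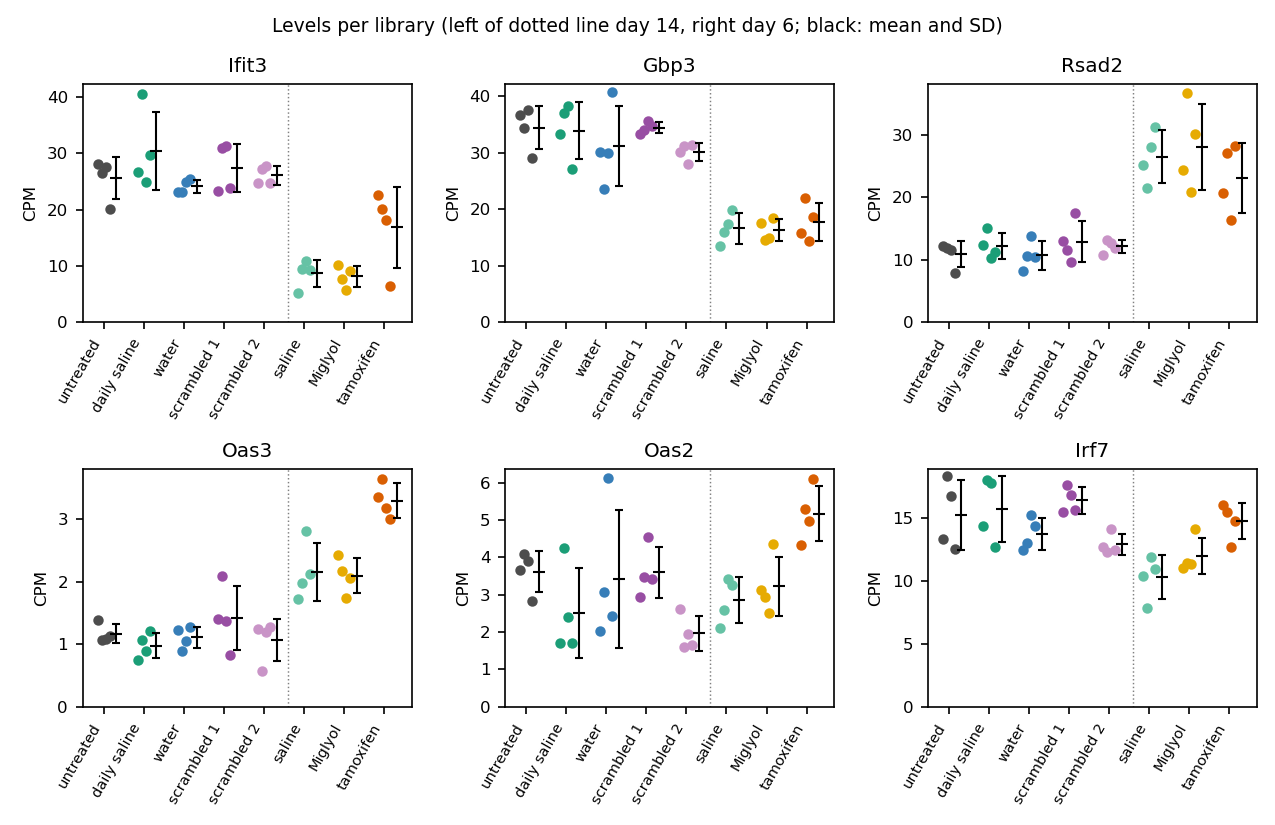
CPM in each library (vertical axis) of 6 members by group (horizontal axis; 4 libraries per group, with mean and SD in black). Ifit3 and Gbp3 are lower and Rsad2 and Oas3 higher to the right of the dotted line (day 6), and the tamoxifen libraries are high in Oas3, where they lie between 3.0 and 3.65 CPM.

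Among the genes of ubiquitin-like and ADP-ribose modification, 3 of 5 rose. Parp14 (chr16:35832859-35871514), an ADP-ribosyltransferase gene, had 59.4, 68.8 and 86.9 CPM at day 14 and 38.0, 47.8 and 59.1 CPM at day 6, with no overlap and a log2 fold change of 0.53 (SE 0.058; adjusted p = 1.92e-09 by edgeR). Dtx3l rose by 0.43. Parp9 had 35.7, 40.0 and 48.4 CPM against 25.5, 33.4 and 42.7 CPM and rose by 0.30. Isg15, the gene of the ubiquitin-like protein that gives the group its name, had 4.25, 6.5 and 9.23 CPM against 3.64, 5.33 and 9.56 CPM, and its log2 fold change of 0.13 (SE 0.114; adjusted p = 0.339 by edgeR) did not pass. Trim25, a ligase for ISG15 and for RIG-I, had 76.4, 88.1 and 98.2 CPM against 77.7, 88.4 and 96.3 CPM, nearly the same range, with a log2 fold change of 0.02 (SE 0.028; adjusted p = 0.674 by edgeR).

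Of the other 7 members tested, 5 rose and 1 fell. Rsad2 (chr12:26442743-26456478), which encodes the antiviral enzyme viperin, had 7.78, 11.7 and 17.4 CPM at day 14 and 16.4, 26.1 and 36.6 CPM at day 6. A single scrambled 1 library at day 14 and a single tamoxifen library at day 6 met, and the log2 fold change was -1.13 (SE 0.098, edgeR adjusted p = 2.39e-11). Cmpk2 (chr12:26469059-26479837), a nucleotide kinase gene beside Rsad2 on the opposite strand, had 17.4, 20.7 and 24.5 CPM against 14.7, 20.6 and 23.8 CPM, and its log2 fold change of 0.07 (SE 0.062; adjusted p = 0.352 by edgeR) did not pass. Xaf1, whose product favours cell death, had 17.2, 20.2 and 26.9 CPM against 11.9, 14.2 and 17.1 CPM without overlap, a log2 fold change of 0.53. Rtp4, which encodes a receptor chaperone and antiviral protein, had 12.5, 17.0 and 22.5 CPM against 9.38, 12.8 and 16.5 CPM, a log2 fold change of 0.48. Ifi35, Bst2 and Ifi44 rose by 0.46, 0.38 and 0.32.

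When only the saline groups of each age were compared (an alternative added after the data were seen), 17 members were higher and 2 lower, beside 41.1% of all genes called, 20.4% higher and 20.7% lower. The members that no longer passed were Ifi44, Usp18, Stat2, Dhx58 and Ifit2. Each of the 24 members past the threshold kept its direction in all 40 settings, and 19 stayed past it in every one. For Ifit3 the saline groups alone gave a log2 fold change of 1.81, and for Dhx58 they gave 0.09.

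Other lists are to be read beside the 61.4% of all genes called between ages (30% higher, 31.3% lower). Of 49 other interferon-response genes tested, 34 rose and 4 fell, with a median log2 fold change of 0.34, among them Slfn5 (1.08), Tor3a (0.68), Ly6e (0.72) and Ifi203 (1.25). Of 11 receptor and kinase genes, 9 rose and none fell, with Ifngr1 at 0.64, Ifngr2 at 0.33 and Ifnar2 at 0.28. Of 16 genes upstream of interferon production, 6 rose and 4 fell, near the share of all genes. Among them the cGAS gene Mb21d1 was at -1.0 and the endosomal receptor gene Tlr3 at 0.51. Of 11 negative regulators, 3 rose and 1 fell, below the share of all genes. Markers of several cell types passed as well, to be read beside the same shares. All 8 B cell markers and 10 of 11 T and NK cell markers rose (median 1.09 and 0.72), 9 of 10 endothelial markers rose, 6 of 7 neutrophil markers fell (median -1.66), and 8 of 11 macrophage markers fell and 1 rose. The summed neutrophil markers were 68.1 to 83.7 CPM in the saline group of day 6 and 53.7 to 95.3 CPM at day 14. After Miglyol they were 130.8 to 175.1 CPM and after tamoxifen 266.2 to 979.2 CPM. S100a9 and S100a8 were the largest parts of that sum (means of 60.3 and 41.3 CPM). It therefore says little of lower markers such as Ngp (10.7 CPM). The summed macrophage markers were 1446 to 1627 CPM after saline, 1545 to 1813 CPM after Miglyol and 2187 to 2496 CPM after tamoxifen at day 6. At day 14 they were 1487 to 2458 CPM. Most of that sum was Lyz2 (mean of 1620 CPM), the macrophage marker that rose between ages (0.245). The summed T and NK markers were 26.3 to 70.6 CPM at day 14 and 18.5 to 35.6 CPM at day 6, the summed B cell markers 131.0 to 241.8 and 65.0 to 127.3 CPM, and every B, T and NK marker had reads, though the NK cell gene Ncr1 had none in some libraries. The part of these cells in the change of the members was not tested.

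At day 14 no member passed the threshold between any groups. Daily saline against untreated called 0 of 33 members (0.233% of all genes), water against untreated 0 (0.0494%) and daily saline against water 0 (2.74%). Scrambled 1 called 0 members against water (0.120%), 0 against scrambled 2 (0.205%) and 0 against untreated (0.303%), and scrambled 2 called 0 against water (0%) and 0 against untreated (0%). At an unadjusted p under 0.05 the counts were 4 members for daily saline against untreated (9.24% of all genes), 4 for water against untreated (8.09%) and 5 for daily saline against water (17.7%). Scrambled 1 had 5 against water (11% of all genes), 8 against scrambled 2 (10.9%) and 0 against untreated (8.79%). Scrambled 2 had 2 against water (5.32%) and 5 against untreated (6.6%). DESeq2 called 1 member in daily saline against water and limma-voom none, and neither called a member in the other day-14 comparisons. In the joint test of any difference among the 5 groups 0 members passed (1.17% of all genes), with 8 at an unadjusted p under 0.05 beside 14.9% of all genes. The median SE of a member was 0.121 to 0.123 on the log2 scale.

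**Figure D4:**
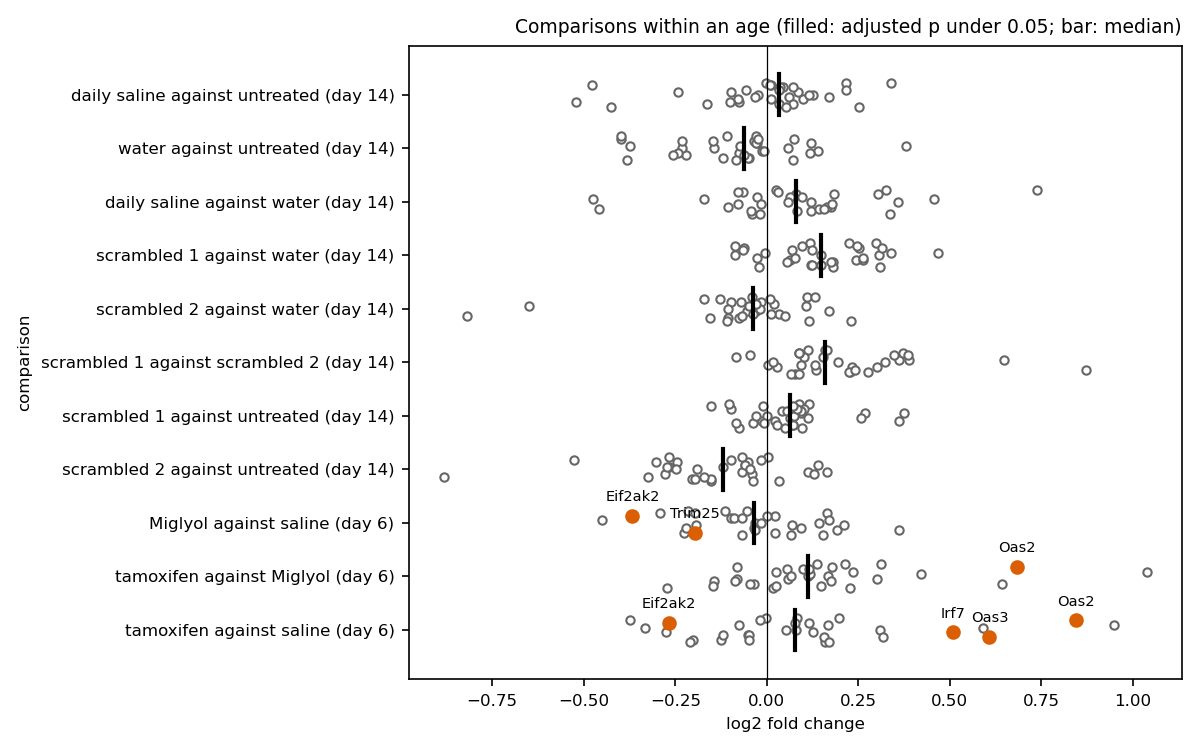
Log2 fold change of each tested member (horizontal axis) in the 11 comparisons within an age (vertical axis). Filled points passed an adjusted p of 0.05, and the black bar is the median of the members, which is 0.159 for scrambled 1 against scrambled 2 and -0.12 for scrambled 2 against untreated.

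Daily saline against untreated gave small values. The median log2 fold change was 0.03, with 20 of 33 above 0, and it was -0.06 with the share of intronic reads as a covariate. The smallest p belonged to Ifit2, with 36.2, 38.6, 33.3 and 42.5 CPM after daily saline and 30.8, 32.9, 34.4 and 31.7 CPM in untreated pups. The ranges overlapped, and the log2 fold change was 0.22 (SE 0.084, edgeR adjusted p = 0.398). Dhx58 had 5.66, 4.90, 5.97 and 4.53 CPM after daily saline against 6.46, 6.44, 8.58 and 6.65 CPM, every saline library below every untreated one, at a log2 fold change of -0.43 (SE 0.165; adjusted p = 0.399 by edgeR).

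Water set against untreated gave a median of -0.06, with 26 of 33 members below 0. Xaf1 had 19.3, 20.1, 19.0 and 20 CPM after water and 26.9, 26.0, 23.3 and 17.6 CPM in untreated pups, where replicate 4 was the lowest of all. Its log2 fold change of -0.26 did not pass (SE 0.106, edgeR adjusted p = 0.499). Dhx58 in water libraries had 5.01, 4.97, 5.86 and 5.72 CPM, again below every untreated library, at -0.38 (edgeR adjusted p = 0.528). These comparisons share the untreated libraries.

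In daily saline against water, Bst2 came nearest to the threshold. It had 51.2, 55.4, 50.8 and 52.1 CPM after daily saline and 47.6, 38.4, 43.0 and 38.1 CPM after water. The groups did not overlap, and the log2 fold change was 0.33 (SE 0.095, edgeR adjusted p = 0.066). It passed with DESeq2, in a fit of these groups alone and without water replicate 1, and its adjusted p ran from 0.0318 to 0.885 over the alternatives. Ifit3 had 26.7, 40.5, 24.9 and 29.7 CPM against 23.1, 23.1, 24.9 and 25.4 CPM, at 0.34 (edgeR adjusted p = 0.173). Of the other interferon-response list, Tor3a (0.245) and Ly6e (0.227) passed (edgeR adjusted p = 0.0205 and 0.0461), beside 2.74% of all genes. The share of intronic reads was 8.61% to 11.1% after daily saline and 12.8% to 16% after water. With that share as a covariate the change of Bst2 was 0.06. The share did not overlap between these groups, so it and the treatment cannot be told apart. Its part in these values was not tested.

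The scrambled oligonucleotides, given at the same dose and days, leaned apart in the members without a call. Scrambled 1 was above scrambled 2 in 31 of 33 members, at a median log2 difference of 0.16 beside -0.0011 for all genes, of which 49.6% were above 0. With group means removed, the mean r of pairs of members was 0.32. Counts of members above 0 therefore do not stand for as many separate observations. Irf9 had 48.6, 57.7, 58.2 and 56.4 CPM with scrambled 1 and 46.5, 44.9, 43.6 and 47.7 CPM with scrambled 2. Every scrambled 1 library was the higher, and the log2 difference was 0.28 (SE 0.078, edgeR adjusted p = 0.177). Stat2 had 51.9, 63.6, 62.4 and 57.5 CPM against 51.4, 46.8, 48.1 and 55.5 CPM, with overlap, at 0.22 (edgeR adjusted p = 0.295). Of 48 other interferon-response genes tested, 42 were also above 0 (median 0.14) and none passed in this comparison. All 8 B cell markers were above 0 as well (median 0.33) without a call, and their sum was 205.9 to 241.8 CPM with scrambled 1 and 163.0 to 187.2 CPM with scrambled 2. The part of B cells in the values of the members was not tested.

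Set against water, scrambled 1 had 26 of 33 members above 0 (median 0.15) and scrambled 2 had 11 (median -0.04). With scrambled 1 the smallest p was in Ifi44, with 7.61, 9.17, 9.94 and 6.86 CPM against 5.82, 5.37, 5.86 and 7.21 CPM in water, at 0.47 (SE 0.183, edgeR adjusted p = 0.363). Bst2 had 50.1, 50.4, 47.9 and 47.1 CPM with scrambled 1, at 0.23 (edgeR adjusted p = 0.389). Outside the members, Ly6e of the other interferon-response list passed with scrambled 1 against water, at 0.338 (edgeR adjusted p = 0.0161). In that comparison 0.120% of all genes passed. With scrambled 2 the smallest p was in Oas2, with 2.63, 1.61, 1.96 and 1.66 CPM against 2.04, 3.08, 6.12 and 2.44 CPM in water, at -0.82 (SE 0.325, edgeR adjusted p = 0.92). The value of 6.12 CPM is water replicate 3, the library with muscle and adipose markers, and without it the log2 fold change was -0.36. Zbp1 had 2.51, 2.64, 1.63 and 1.28 CPM with scrambled 2 and 3.47, 2.29, 2.36 and 4.66 CPM in water, with overlap, at -0.65 (edgeR adjusted p = 0.92).

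Set against untreated, the medians were 0.06 for scrambled 1 and -0.12 for scrambled 2. The members with the smallest p were Dtx3l (0.11) and Rsad2 (0.26) for scrambled 1, and Xaf1 (-0.32) and Oas2 (-0.88) for scrambled 2, with edgeR adjusted p from 0.56 to 0.727. Dtx3l had 32.1, 33.5, 33.9 and 32.7 CPM with scrambled 1 and 28.9, 30.8, 30.3 and 32.2 CPM in untreated pups, which overlapped slightly. Rsad2 had 13.0, 11.5, 9.62 and 17.4 CPM against 12.2, 11.9, 11.5 and 7.78 CPM, which overlapped widely. Xaf1 with scrambled 2 had 18.5, 17.2, 19.0 and 20.2 CPM, below 3 of the 4 untreated libraries. Oas2 in untreated pups had 3.67, 4.08, 3.91 and 2.82 CPM, above every scrambled 2 library.

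At day 6 a few members passed. In the joint test of the 3 groups these were 5 of 32 (Irf7, Oas2, Oas3, Eif2ak2 and Trim25), beside 23.9% of all genes, and 9 members had an unadjusted p under 0.05 beside 39.4% of all genes. Miglyol against saline called 2 of 32 members, both lower (6.25%, beside 10.6% of all genes, with 7.29% lower). Tamoxifen against Miglyol called 1, higher (3.12% beside 5.68%, with 3.71% higher). Tamoxifen against saline called 3 higher and 1 lower (12.5% beside 23.7%, with 11.3% higher and 12.3% lower). These shares rest on few members, so no difference from the background is read from them. The medians of the members were -0.03, 0.11 and 0.08 beside 0.02, -0.0044 and 0.01 for all genes. With the share of intronic reads as a covariate the median of tamoxifen against saline was -0.015. The 3 comparisons share their libraries pairwise.

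Eif2ak2 (chr17:78852550-78882572) had 38.4, 41.0, 44.7 and 42.9 CPM after saline, 30.7, 36.7, 33.0 and 29.8 CPM after Miglyol and 32.7, 31.1, 36.4 and 38.6 CPM after tamoxifen. All Miglyol libraries lay below all saline libraries, and tamoxifen replicate 4 alone reached the lowest saline value. The gene fell by 0.37 with Miglyol against saline (SE 0.086, edgeR adjusted p = 0.0158) and by 0.27 with tamoxifen against saline (SE 0.085, edgeR adjusted p = 0.0305). With the share of intronic reads as a covariate these values were -0.20 and -0.11 and did not pass (edgeR adjusted p = 0.385 and 0.449). The call of Miglyol against saline was also lost without Miglyol replicate 1 or 4 or saline replicate 3 or 4, at -0.35 to -0.33. That of tamoxifen against saline was lost without saline replicate 2, 3 or 4 or tamoxifen replicate 1 or 2, at -0.28 to -0.22. That share was 13.9% to 16% after saline, 11.4% to 14.3% after Miglyol and 11.7% to 14.9% after tamoxifen.

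Trim25 (chr11:88999403-89020293) had 90.9, 89.0, 94.7 and 94.7 CPM after saline and 80.7, 79.8, 77.7 and 85.0 CPM after Miglyol, without overlap. It fell by 0.20 on the log2 scale (SE 0.059, edgeR adjusted p = 0.0414). The call was lost without any 1 of the 8 libraries, at values from -0.22 to -0.18. After tamoxifen it had 83.4, 89.9, 87.9 and 96.3 CPM, between and across both groups.

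Oas2 (chr5:120730333-120749884) had 4.34, 5.29, 4.97 and 6.10 CPM after tamoxifen, 3.13, 2.93, 2.5 and 4.35 CPM after Miglyol and 2.10, 2.60, 3.43 and 3.27 CPM after saline. Tamoxifen was above saline in every library and met Miglyol at a single one. It rose by 0.68 against Miglyol (SE 0.197, edgeR adjusted p = 0.0489) and by 0.85 against saline (SE 0.204, edgeR adjusted p = 0.00718). Against saline it stayed past the threshold in every alternative. Against Miglyol the call was lost without any one of 7 of the 8 libraries, all but Miglyol replicate 4, with an adjusted p from 0.0232 to 0.131 over all alternatives.

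Oas3 had 3.36, 3.65, 3.19 and 3.00 CPM after tamoxifen, 2.43, 2.17, 1.74 and 2.07 CPM after Miglyol and 1.73, 1.98, 2.82 and 2.12 CPM after saline. Every tamoxifen library lay above all others of that age. It rose by 0.61 against saline (SE 0.204, edgeR adjusted p = 0.0385), and the value of 0.64 against Miglyol did not pass (edgeR adjusted p = 0.0688). These levels rest on few reads, at most 38 in a library. The call against saline was lost in 4 of 10 alternatives, among them DESeq2, and without any 1 of 6 of the 8 libraries, all but saline replicate 3 and tamoxifen replicate 4. The adjusted p ran from 0.0251 to 0.195. Irf7 (chr7:141263183-141266499) had 16, 15.4, 12.7 and 14.7 CPM after tamoxifen, 11.0, 11.4, 11.3 and 14.1 CPM after Miglyol and 10.4, 7.81, 11.9 and 10.9 CPM after saline. Tamoxifen did not overlap saline, and Irf7 rose by 0.51 (SE 0.131, edgeR adjusted p = 0.0103). This call held with each library left out. It was lost in 1 of 10 alternatives, with the share of intronic reads as a covariate (edgeR adjusted p = 0.0625). The value against Miglyol was 0.30 (edgeR adjusted p = 0.195).

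Ifit3 had the widest value without a call. It had 22.6, 20.1, 18.1 and 6.5 CPM after tamoxifen, 10.1, 7.59, 5.75 and 9.00 CPM after Miglyol and 5.18, 9.42, 10.8 and 9.27 CPM after saline. Of the tamoxifen libraries 3 lay above all others and replicate 4 lay among them, and the log2 fold change against Miglyol was 1.04 (SE 0.342, edgeR adjusted p = 0.114). Among the GTPase genes, Gbp2 had 23.4, 26.8, 19.8 and 25.6 CPM after tamoxifen and 29.7, 23.1, 26.9 and 26.1 CPM after Miglyol, and no guanylate-binding protein gene among the members passed. With tamoxifen against Miglyol, Ifitm1 (0.645), Lgals3bp (0.431) and Ifi30 (0.424) of the other interferon-response list rose. Iigp1 fell (-0.713), beside 5.68% of all genes called. With Miglyol against saline, Ifi204 rose (0.642) and Slfn5 fell (-0.426), beside 10.6%. With tamoxifen against saline, Ifitm1, Ifitm3, Ifi30, Ifi204, Slfn1 and Lgals3bp rose and Iigp1 and Slfn5 fell, beside 23.7%.

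Markers of blood cells moved with tamoxifen. Against Miglyol 7 of 8 markers of all leukocytes, 6 of 7 of neutrophils (median log2 fold change 2.21) and 3 of 11 of macrophages and monocytes rose, and none fell. Against saline 8 of 8, 7 of 7 (median 3.31) and 7 of 11 rose. The summed neutrophil markers were 735.7, 722.0, 979.2 and 266.2 CPM in the 4 tamoxifen libraries, 130.8 to 175.1 CPM after Miglyol and 68.1 to 83.7 CPM after saline. Replicate 4, lowest in that sum among the tamoxifen libraries, was also lowest in Ifit3 and Oas3, highest in Oas2 and between the others in Irf7. The part of these cells in the rise of Oas2, Oas3 and Irf7 was not tested.

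Beyond age and treatment, the members varied together from library to library. With the mean of each group removed, every member above the filter at both ages was correlated with the mean of the other members over the 32 libraries. The median r of 32 members was 0.60, with 31 above 0 and 20 above 0.5. Of the 13949 genes above that filter, those outside the list had a median r with the members of -0.01. Of those genes, 1.11% were above 0.5. The mean r of pairs of members was 0.32, and of pairs of all genes 0.001. These points share library depth and RNA, and r is a description without a test. Gbp3 (0.83), Oasl2 (0.82), Rtp4 (0.81) and Irf9 (0.77) followed the others most closely. Oas3 (0.25), Oasl1 (0.21), Eif2ak2 (0.07) and Ifit2 (-0.11) followed them least.

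**Figure D5:**
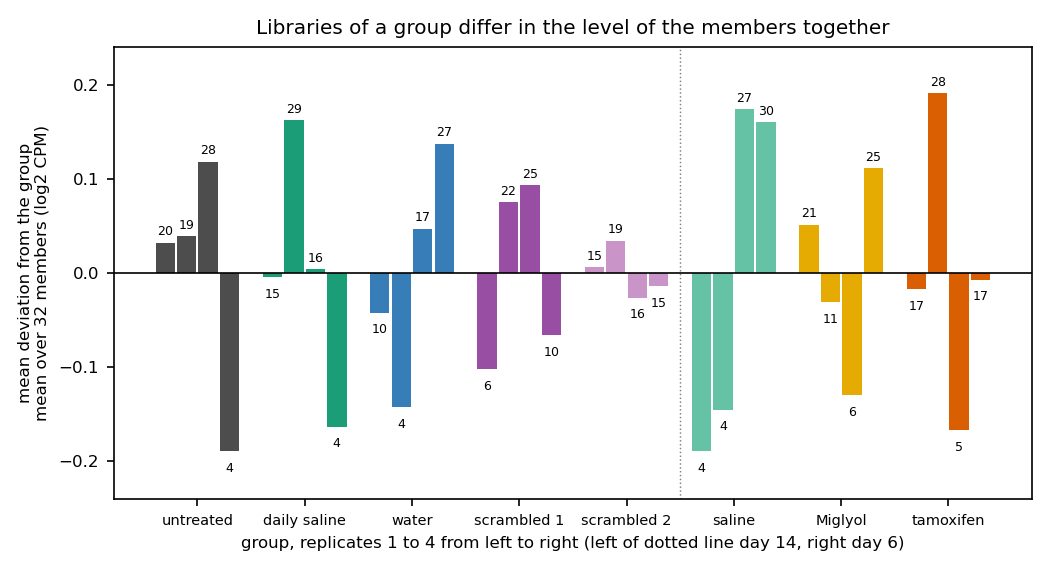
Mean deviation of 32 members from their group mean in each library (vertical axis, log2 CPM; horizontal axis, groups with replicates 1 to 4 in order). The number at each bar counts the members above their group mean, from 4 in the lowest libraries to 30 in saline replicate 4 at day 6.

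High and low libraries occurred in nearly every group. In untreated pups 28 of 32 members were above their group mean in replicate 3 and 4 in replicate 4. In the daily saline group the counts were 29 in replicate 2 and 4 in replicate 4, and in the water group 27 in replicate 4 and 4 in replicate 2. In the day-6 saline group replicates 3 and 4 had 27 and 30 and replicates 1 and 2 had 4 each, while tamoxifen had 28 in replicate 2 and 5 in replicate 3. Scrambled 2 was the most even, with 15 to 19. On the mean log2 CPM of the members, groups had 4.33 ± 0.131 (SD, n = 4) untreated, 4.32 ± 0.133 daily saline, 4.23 ± 0.120 water, 4.38 ± 0.098 scrambled 1 and 4.18 ± 0.026 scrambled 2 at day 14. At day 6 they had 4.02 ± 0.194 saline, 3.99 ± 0.105 Miglyol and 4.12 ± 0.147 tamoxifen. The scrambled groups did not overlap in this mean, with 4.28 to 4.47 for scrambled 1 and 4.16 to 4.21 for scrambled 2, while libraries of the untreated group ran from 4.14 to 4.45.

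The genes outside the list most like the members were mostly known targets of interferon. By the same r over 32 libraries they included Irgm2 (0.76), Phf11d (0.76), Lgals9 (0.76), Irgm1 (0.75) and Gbp6 (0.75). Immunoproteasome genes followed, with Psmb8 at 0.74, Psmb9 at 0.73, Psmb10 at 0.68 and the activator gene Psme2 at 0.69. The unique share was 32.7% in Gbp6, 43.4% in Psme2 and 82.8% in Phf11d, so part of their counts could belong to other records. The mean of the other interferon-response list had r = 0.82 with the mean of the members. The T and NK markers had r = 0.53, thymus markers 0.47, dendritic cell markers 0.40, B cell markers 0.35, neutrophil markers 0.20 and macrophage markers 0.07. Library depth had 0.15 and the share of intronic reads -0.35. Without the 2 libraries farthest from the median of each measure, r was 0.50 for T and NK markers, 0.50 for neutrophil markers, -0.02 for depth and -0.18 for the intronic share. For thymus markers r was then 0.45. The summed thymus markers reached 56.0 CPM in the water group, against at most 39.9 CPM in any other group. T and NK markers reached 70.6 CPM in the water group, against at most 53.0 CPM in any other. The part of T and NK cells, or of thymus tissue, in this variation was not tested.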

How the data were processed

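The 32 lung RNA samples were sequenced by the submitters. Their processing notes list bcl2fastq 2.0. Which aligner, genome build and strand setting they used is not given in the sources used here. Per the file headers, the deposited values are whole-number counts of exon and intron reads for 46165 gene records, once over all mapped reads and once over uniquely mapped reads. Of 43003 gene IDs found in RefSeq GRCm38.p6, 97.4% start within 5 kb of that table, so the coordinates of the files are given as GRCm38.

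Exon counts over all mapped reads were modelled by robust quasi-likelihood F tests (edgeR 4.0.16, R 4.3.3) after filterByExpr and TMM scaling, with 1 fit per age (14179 genes at day 14, 14107 at day 6) and 1 fit of all libraries between ages (14406 genes). The threshold was a Benjamini-Hochberg adjusted p under 0.05 over all genes, with SE as the absolute log2 fold change over the square root of F. Log2 CPM for correlations used a prior count of 2. Groups and replicate numbers came from the labels. Replicate pairs of a group differed by a chi-square per gene of 2.38 to 16.6, so none was counted again. The fit was tested on simulated counts. Alternatives were limma-voom (3.58.1), DESeq2 1.42.0, RLE scaling, no filter, unique reads, covariates, other sets of libraries, a block for the replicate number, and omission of each library in turn. Libraries are compared within limits set by their 7918537 to 12443221 exon reads. Limits from counts of 0 cover counting error only.

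The members and gene lists were chosen with earlier results of these data known. Values by library are given for members past the threshold within an age, otherwise for the 2 with the smallest p in each comparison, for the 10 largest changes between ages and for the 2 highest per exon length in each role. Among the genes most like the members, 1 is not reported here.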

Additional observations from a re-analysis of the deposited data

Results flagged for a closer look

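Among 280 sets of 4 libraries (a member, or the mean of the members, in a group), 17 (6.07%) had a library far from the other 3 by Dixon's criterion at the 95% level. All 17 were sets of a single member. Chance flags about 1 in 20. Most were single high libraries. At day 14, Ifih1 had 41.3 CPM and Dhx58 8.58 CPM in untreated replicate 3, where the others had at most 32.0 and 6.65 CPM, and Ifit1 had 1.40 CPM in untreated replicate 2 against at most 0.451 CPM. Parp9 had 44.6 CPM in daily saline replicate 2 against at most 40.4 CPM. In water, Oasl1 had 1.49 CPM in replicate 3, the library with muscle and adipose markers, against at most 0.894 CPM, and Gbp7 had 93.9 CPM in replicate 4 against at most 60.6 CPM. With scrambled 1, Irf1 had 109.9 CPM in replicate 3 against at most 101.0 CPM, and Ifih1 40.7 CPM in replicate 2 against at most 34.7 CPM.

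At day 6, Irf1 had 72.4 CPM and Oasl1 1.41 CPM in saline replicate 4, against at most 64.1 and 0.991 CPM, and Usp18 had 13.6 CPM in saline replicate 3 against at most 9.13 CPM. Irf7 had 14.1 CPM in Miglyol replicate 4 against at most 11.4 CPM, and Ifit1 had 0.961 CPM in tamoxifen replicate 2 against at most 0.217 CPM. Low libraries were fewer, and all lay at day 14. Gbp7 had 54.9 CPM in scrambled 1 replicate 1 where the others had at least 64.2 CPM. Oas3 had 0.574 CPM in scrambled 2 replicate 2 and Dtx3l 30.2 CPM in scrambled 2 replicate 4, where the others had at least 1.20 and 33.6 CPM. Rsad2 had 7.78 CPM in untreated replicate 4 against at least 11.5 CPM.

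A signal lay outside the exon counts for Mx1 and Mx2. Their records list no exon, and their reads stand in the intron column, with at least 12 reads in every library for Mx1 and at least 13 for Mx2. Scaled to the same library sizes, Mx1 had 4.74 ± 1.29 CPM (SD, n = 20) at day 14 and 2.64 ± 0.886 CPM (SD, n = 12) at day 6. Mx2 had 4.51 ± 0.610 CPM at day 14 and 3.41 ± 0.944 CPM at day 6. These differences were not tested.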

How the results depend on the processing

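No single-gene result changed direction. Of 814 values of 33 single-gene results under an alternative, 767 kept their side of the threshold, 44 lost it and 3 gained it, and of 526 counts and medians 490 stayed within 1.5 times the count or within 1 SD of the median. That limit is wide for the medians, which changed sign with the intronic share as a covariate in daily saline against untreated (0.032 to -0.058), daily saline against water (0.079 to -0.043) and tamoxifen against saline (0.078 to -0.015). Medians near 0 also crossed it in water against untreated (up to 0.009), scrambled 2 against water (up to 0.017) and Miglyol against saline (up to 0.031). Daily saline against water called 1 member (Bst2) in a fit of these groups alone and with DESeq2, and 0 to 1 with a library left out, the 1 being without water replicate 1. The joint test at day 14 called 0 to 1, the 1 being without scrambled 2 replicate 4. Miglyol against saline called 1 member with no filter, 1 with the replicate block and 0 with the intronic share as a covariate, and 0 to 3 with a library left out. The calls were 0 without Miglyol replicate 1 or 4 or saline replicate 3 or 4. Tamoxifen against Miglyol called 0 with the replicate block, with Xist as a covariate and in a fit of these groups alone, and 0 to 1 with a library left out, the 0 being without replicate 1, 2 or 3 of either group. Tamoxifen against saline called 1 with the intronic share as a covariate, 6 in a fit of all 32 libraries and 2 to 5 with a library left out (2 without saline replicate 2 or 4 or tamoxifen replicate 1 or 2). The joint test at day 6 called 3 with the replicate block, 1 with the intronic share as a covariate, 7 in a fit of all 32 libraries and 2 to 6 with a library left out (2 without saline replicate 2). Between ages 24 to 25 members passed with a library left out, and 19 in the saline groups alone. Replicate numbers pair no samples by the labels. Same-numbered libraries deviated together (correlation over 0.1) in 10 of 40 pairs at day 14 and 1 of 12 at day 6, so the block serves as a check only. Depth limits the lowest members, such as Oas3 with 5 to 38 reads and Oasl1 with 4 to 21. A fit with the block was not run between ages.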
